A study of Mus musculus with 4 samples.

Results

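The G2 and mitosis genes are a set of 52 genes that cells use to enter, carry out and leave mitosis, chosen by symbol from a given list. All 52 were found among the 56941 features of the deposited tables, each with 1 identifier. They were sorted into 9 groups by role. RNA was measured in single mouse marrow cells with a droplet method, in 4 libraries that stand for 4 groups. The KO MLL-AF9 library holds primary leukaemia cells with a knockout of Rbm5, a gene for an RNA-binding splicing protein, and the WT MLL-AF9 library holds wild-type leukaemia cells of the same endpoint after primary transplantation. MLL-AF9 is an oncogenic fusion protein that can turn myeloid progenitors into leukaemia cells. The KO c-Kit+ and WT c-Kit+ libraries hold non-leukaemic marrow with the Rbm5 knockout and wild-type marrow, labelled for Kit, a receptor on stem and progenitor cells. Age, strain, the way Rbm5 was deleted and the number of mice behind a library are not given in the sources used here. Each comparison is thus 1 library against 1 other: there is no replicate and no test, and intervals cover counting error only, at 95%.

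Mitosis is driven by the kinase CDK1 bound to a cyclin, and ends when the anaphase-promoting ubiquitin ligase, activated by CDC20 and served by the enzyme UBE2C, has cyclin and other proteins destroyed. Between these steps condensins and topoisomerase II shape the chromosomes, kinetochores and motor proteins align them on the spindle, the aurora kinases and the spindle checkpoint correct and time their attachment, and a contractile ring divides the cell. Most of these genes are silent in resting cells and are transcribed together late in the cell cycle. This goes through promoter elements called CCAAT boxes and the cell cycle genes homology region (CHR). Of these elements, the CHR is the one that the DREAM and MuvB complexes bind. In marrow, dividing cells are mainly progenitors, erythroid precursors and early neutrophil precursors, while late neutrophils no longer divide.

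The promoters are shown here because the members share these elements although the list was not chosen by sequence. Promoter sequence of RefSeq (build GRCm38.p6), from 250 bases before to 50 after the start site, was found for 46 of the 52 genes, with 51 promoters, and Cdc25c, Aurkb, Tpx2, Dlgap5, Smc4 and Cdca2 were not matched. A CHR sequence, TTTGAA or TTCGAA on either strand, stood in 38 of the 51 promoters (74.5%), against 6316 of all 32851 promoters of the table (19.2%). CCAAT, on either strand, also stood in 38 of 51 (74.5%), against 12289 of all (37.4%), and both elements stood in 60.8%, against 7.52%. Of 33 promoters of genes of S phase, the time of DNA replication, 6 had a CHR sequence (18.2%) and 22 had CCAAT (66.7%). In 1 of the 51 promoters, that of Cdca8, both motifs overlapped. The stretches run from 100 bases before to 20 after the start site, 5′ to 3′ on the gene's strand. Capitals mark a CHR sequence or a CCAAT box, in either orientation. The first 5 are members with central roles, and Ttk, Cks2, G2e3 and Anln are members far apart in the leukaemia comparison.
Cdk1 (chr10:69352893-69353012, minus strand): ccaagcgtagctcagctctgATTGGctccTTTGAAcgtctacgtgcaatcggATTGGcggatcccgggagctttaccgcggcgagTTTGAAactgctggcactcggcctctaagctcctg
Ccnb2 (chr9:70421535-70421654, minus strand): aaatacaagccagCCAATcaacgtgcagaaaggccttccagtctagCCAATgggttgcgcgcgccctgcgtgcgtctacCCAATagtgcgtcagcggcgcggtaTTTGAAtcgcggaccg
Ube2c (chr2:164769829-164769948, plus strand): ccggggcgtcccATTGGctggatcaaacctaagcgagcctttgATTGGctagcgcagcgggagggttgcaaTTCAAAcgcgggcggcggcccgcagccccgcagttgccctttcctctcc
Cdc20 (chr4:118437324-118437443, minus strand): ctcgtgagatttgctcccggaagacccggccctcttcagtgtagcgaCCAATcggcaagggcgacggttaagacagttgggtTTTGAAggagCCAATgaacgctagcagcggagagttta
Top2a (chr11:99024170-99024289, minus strand): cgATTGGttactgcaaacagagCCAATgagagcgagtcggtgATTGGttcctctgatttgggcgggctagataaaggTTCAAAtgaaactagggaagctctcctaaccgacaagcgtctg
Ttk (chr9:83834589-83834708, plus strand): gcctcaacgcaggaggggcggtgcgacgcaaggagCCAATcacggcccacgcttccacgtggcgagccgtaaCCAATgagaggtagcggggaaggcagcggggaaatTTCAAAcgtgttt
Cks2 (chr13:51645132-51645251, plus strand): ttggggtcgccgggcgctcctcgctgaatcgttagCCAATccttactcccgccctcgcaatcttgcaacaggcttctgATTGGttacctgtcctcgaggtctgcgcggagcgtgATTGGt
G2e3 (chr12:51348130-51348249, plus strand): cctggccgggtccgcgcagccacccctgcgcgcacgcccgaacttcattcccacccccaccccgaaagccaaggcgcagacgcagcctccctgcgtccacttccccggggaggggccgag
Anln (chr9:22389187-22389306, minus strand): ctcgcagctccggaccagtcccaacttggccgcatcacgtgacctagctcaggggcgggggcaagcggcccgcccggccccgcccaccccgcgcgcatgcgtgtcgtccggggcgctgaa
Cdk1 had 2 CHR and 2 CCAAT sequences in this stretch. Ccnb2 and Top2a had 3 CCAAT sequences and 1 CHR, and Ube2c, Cdc20 and Ttk had 2 and 1. Cks2 had 3 CCAAT sequences and no CHR in the stretch. G2e3 and Anln had neither element in the printed stretch. For Anln, TTTGAA stood just beyond it, at bases 22 to 27 and 29 to 34 after the start site, in opposite orientations. Anln thus counts as a member with a CHR sequence in the 300-base promoter, and G2e3 does not. A match is a description of the letters and does not show that a factor binds there.

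After cells with few genes or many mitochondrial reads had been left out, 11778 KO MLL-AF9, 13177 WT MLL-AF9, 13708 KO c-Kit+ and 12948 WT c-Kit+ cells were kept, with 93004538 to 101255178 UMIs (distinct captured transcripts) per library. Median depth per cell was 7420.5 UMIs in KO MLL-AF9 and 5946 in WT MLL-AF9, and 5428.5 in KO c-Kit+ and 5352 in WT c-Kit+. Between 40 and 59 barcodes were shared by any 2 libraries. Rbm5 itself was at 115.5 CPM (UMIs scaled to a common library total) in KO MLL-AF9 and 160.5 CPM in WT MLL-AF9, and at 89.6 CPM in KO c-Kit+ and 75.5 CPM in WT c-Kit+. The deleted part of the gene is not named and reads are primed from the poly-A tail, so its level does not check the labels, and KO and WT below mean libraries so labelled. Kit was at 28.4, 61.3, 43.9 and 45.8 CPM in KO MLL-AF9, WT MLL-AF9, KO c-Kit+ and WT c-Kit+. In the libraries labelled c-Kit+, 57.5% of KO cells and 61.9% of WT cells passed a gate for maturing neutrophils, so they hold much more than progenitors.

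In leukaemia most G2 and mitosis genes were at a lower level in KO than in WT. Of the 51 members at a mean of 5 CPM or more in the 2 libraries, 48 were lower and 3 were higher, where 74.6% of all genes were lower. By 1.5-fold or more, 26 members were lower, against 35.1% of all genes, and 2 were higher, against 9.49%. The median log2 ratio of KO over WT, with 1 CPM added to each level, was -0.60 over the members and -0.38 over all 9901 genes. Median-ratio size factors moved the median of all genes to -0.04 and that of the members to -0.26, with 37 members lower and 13 higher, where 53.1% of all genes were lower. On that scale 2 members were higher by 1.5-fold or more, against 16.4% of all genes, and 9 were lower, against 15.5%: Cbx5, Ttk, G2e3, Cdca2, Kif20b, Anln, Top2a, Ckap5 and Ncapd2. Because a summed level falls both when fewer cells divide and when a dividing cell holds less of the transcript, the cells are taken apart further below. Psrc1, a spindle protein gene, was the member under the level filter, at 2.80, 3.34, 3.62 and 3.81 CPM in KO MLL-AF9, WT MLL-AF9, KO c-Kit+ and WT c-Kit+.

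**Figure D1:**
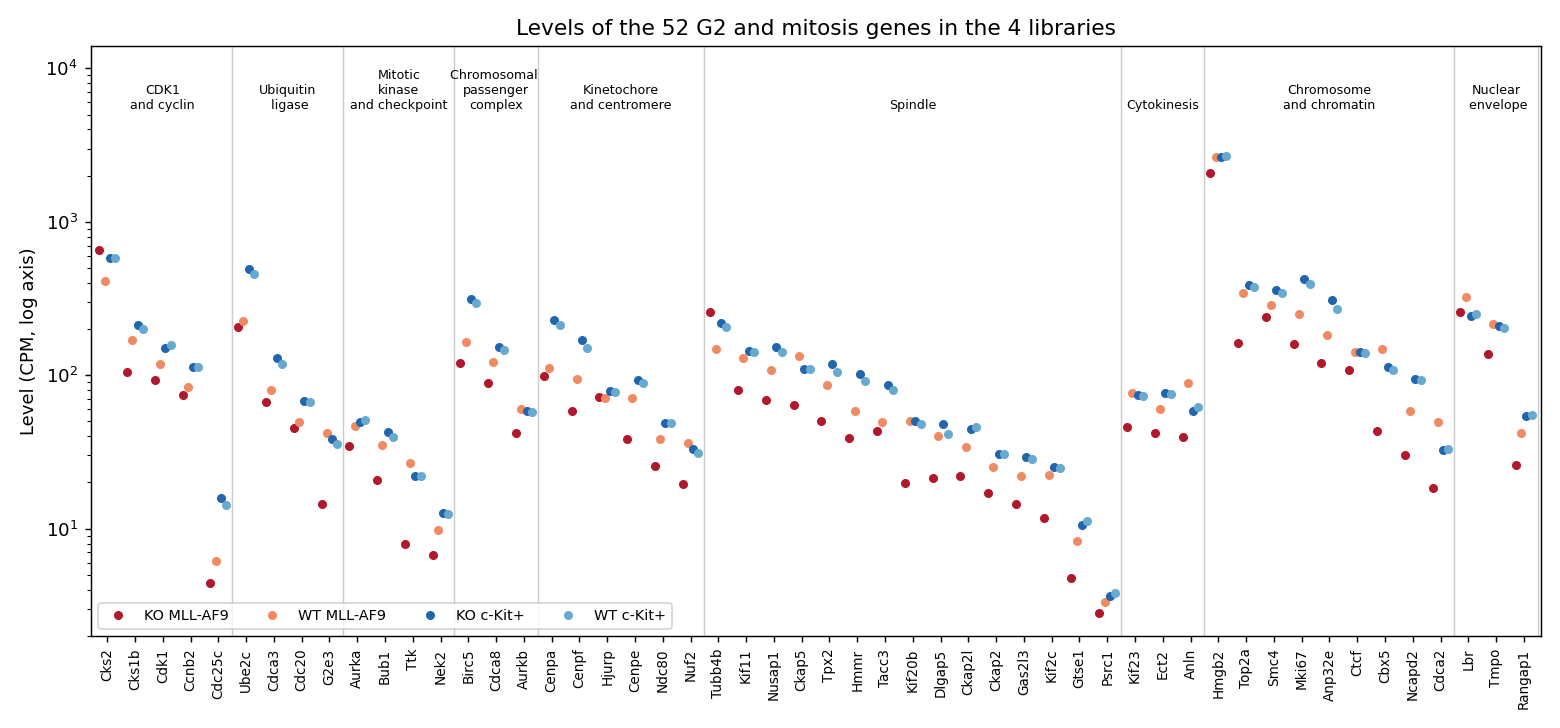
Level of each gene (CPM, log axis) in the 4 libraries, grouped by role, with KO left of WT and leukaemia left of c-Kit+. For most genes the KO MLL-AF9 point is below the WT MLL-AF9 point, as for Top2a at 162.5 and 345 CPM, while Cks2 and Tubb4b have it above. The c-Kit+ points of a gene lie close together.

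Among the genes of CDK1 and its partners, Cks2, which codes for a small subunit of the kinase, stood out by its direction. Its level was 652 CPM in KO MLL-AF9, 409 CPM in WT MLL-AF9, 578.6 CPM in KO c-Kit+ and 578.6 CPM in WT c-Kit+. WT MLL-AF9 was the low library and KO MLL-AF9 the high one, with a leukaemia ratio of 1.59 (1.57 to 1.61). Its close relative Cks1b went the other way, at 104 CPM in KO MLL-AF9 and 170.5 CPM in WT MLL-AF9. Cdk1 was at 93.2 CPM in KO MLL-AF9, 117.7 CPM in WT MLL-AF9, 150.9 CPM in KO c-Kit+ and 158 CPM in WT c-Kit+. The cyclin Ccnb2 was at 74.9 CPM in KO MLL-AF9 and 84.1 CPM in WT MLL-AF9. The phosphatase Cdc25c, which activates CDK1, was at 4.42 CPM in KO MLL-AF9 and 6.13 CPM in WT MLL-AF9, and at 15.95 CPM in KO c-Kit+ and 14.3 CPM in WT c-Kit+. The group's median log2 ratio in leukaemia was -0.33 over 5 genes. With median-ratio size factors Cdc25c was under the level filter, the median of the other 4 genes was 0.10, and Cdk1 and Ccnb2, at 0.02 and 0.18, were no longer lower.

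In the ubiquitin ligase group, G2e3 had a large difference between KO and WT leukaemia and the other members had small ones. Ube2c, the ubiquitin-conjugating enzyme of the anaphase-promoting complex, was at 204.7 CPM in KO MLL-AF9 and 224 CPM in WT MLL-AF9, and at 496 CPM in KO c-Kit+ and 459 CPM in WT c-Kit+. Both leukaemia levels were below both c-Kit+ levels, and KO over WT in leukaemia was 0.912 (0.895 to 0.930). Cdc20 was at 45.5 CPM in KO MLL-AF9, 49.3 CPM in WT MLL-AF9, 68.3 CPM in KO c-Kit+ and 67.1 CPM in WT c-Kit+ (leukaemia ratio 0.923, 0.886 to 0.961). Ratios for Ube2c and Cdc20 were on the other side of 1 with median-ratio size factors, at log2 values of 0.22 and 0.23. G2e3, which codes for a ubiquitin ligase of the G2 phase, was at 14.4 CPM in KO MLL-AF9, 42.0 CPM in WT MLL-AF9, 38.4 CPM in KO c-Kit+ and 35.8 CPM in WT c-Kit+. Here 1 library, KO MLL-AF9, was low, and the leukaemia ratio was 0.343 (0.323 to 0.364). Cdca3, a trigger of mitotic entry, was at 67.1 CPM in KO MLL-AF9 and 80.6 CPM in WT MLL-AF9.

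All 4 members among the mitotic kinases were lower in KO leukaemia, and they were so on both scales. Of all genes, 74.6% were lower in CPM and 53.1% with median-ratio size factors. Ttk, the checkpoint kinase also called MPS1, had 7.97 CPM in KO MLL-AF9, 26.8 CPM in WT MLL-AF9, 22.0 CPM in KO c-Kit+ and 22.0 CPM in WT c-Kit+. It was low in KO MLL-AF9 alone, with a leukaemia ratio of 0.298 (0.275 to 0.323) from 807 and 2489 UMIs in KO and WT. Its checkpoint partner Bub1 was at 20.7 CPM in KO MLL-AF9 and 35.3 CPM in WT MLL-AF9. Aurka, the aurora kinase of the spindle poles, differed less, at 34.7 and 46.5 CPM in KO and WT MLL-AF9 and 49.9 and 50.7 CPM in KO and WT c-Kit+. Nek2, a centrosome kinase, was at 6.69 CPM in KO MLL-AF9 and 9.77 CPM in WT MLL-AF9. The chromosomal passenger complex, in which Birc5 (survivin) and Cdca8 (borealin) anchor the kinase Aurkb, had leukaemia log2 ratios from -0.52 to -0.44. None of its 3 genes was past 1.5-fold, where 35.1% of all genes were lower by that fold. Birc5 was at 120.6 CPM in KO MLL-AF9, 163.7 CPM in WT MLL-AF9, 314 CPM in KO c-Kit+ and 295.9 CPM in WT c-Kit+, so both leukaemia libraries were low.

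Of 6 genes of the kinetochore and centromere, 5 were lower in KO leukaemia, where 74.6% of all genes were lower. With median-ratio size factors 4 were lower, where 53.1% of all genes were. Cenpa, the histone variant that marks centromeres, was at 98.7 CPM in KO MLL-AF9, 112 CPM in WT MLL-AF9, 228 CPM in KO c-Kit+ and 212 CPM in WT c-Kit+. Its chaperone Hjurp was at 72.4 CPM in KO MLL-AF9, 71.2 CPM in WT MLL-AF9, 79.1 CPM in KO c-Kit+ and 78.3 CPM in WT c-Kit+, with an interval of the leukaemia ratio that spans 1 (0.983 to 1.05). The outer kinetochore genes Ndc80 and Nuf2, the kinetochore motor Cenpe and Cenpf had log2 ratios from -0.86 to -0.56.

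The spindle group held the highest leukaemia ratio of the members. Tubb4b, a beta-tubulin and thus a building block of microtubules in all cells, was at 260 CPM in KO MLL-AF9, 149 CPM in WT MLL-AF9, 218 CPM in KO c-Kit+ and 207 CPM in WT c-Kit+. As for Cks2, KO MLL-AF9 was the high library and WT MLL-AF9 the low one, with a leukaemia ratio of 1.74 (1.71 to 1.78). The other 13 members over the level filter were lower, where 74.6% of all genes were, and 9 were so past 1.5-fold, against 35.1%. With median-ratio size factors all but Tacc3 were still lower, where 53.1% of all genes were. By that scale 2 were lower past the fold, against 15.5% of all genes. The motor Kif20b was at 19.8 CPM in KO MLL-AF9, 50.4 CPM in WT MLL-AF9, 50.1 CPM in KO c-Kit+ and 48.0 CPM in WT c-Kit+ (leukaemia ratio 0.392, 0.372 to 0.413). Ckap5, a microtubule polymerase, was at 63.9 and 132.6 CPM in KO and WT MLL-AF9 and at 109.5 and 110.3 CPM in KO and WT c-Kit+ (leukaemia ratio 0.482, 0.468 to 0.497). Kif11, the motor that pushes spindle poles apart, had a log2 ratio of -0.69, and the aurora A activator Tpx2 had -0.77. Dlgap5, Kif2c, Gtse1, Nusap1, Ckap2l, Hmmr, Gas2l3, Ckap2 and Tacc3 had values between -0.89 and -0.20.

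In the cytokinesis group, Anln, the scaffold of the contractile ring, was at 39.3 CPM in KO MLL-AF9, 89.2 CPM in WT MLL-AF9, 58.1 CPM in KO c-Kit+ and 62.2 CPM in WT c-Kit+. WT MLL-AF9 was the high library for Anln and KO MLL-AF9 the low one, with a ratio of 0.441 (0.424 to 0.458). Kif23, a motor of the central spindle, was at 45.8 and 76.3 CPM in KO and WT MLL-AF9 and at 74.6 and 73.6 CPM in KO and WT c-Kit+. The exchange factor Ect2 had a leukaemia log2 ratio of -0.53.

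All 9 genes of chromosomes and chromatin were lower in KO leukaemia, where 74.6% of all genes were lower. With median-ratio size factors 7 of 9 were lower, where 53.1% of all genes were. Cbx5, which codes for the heterochromatin protein HP1 alpha, was at 43.5 CPM in KO MLL-AF9, 147.7 CPM in WT MLL-AF9, 114 CPM in KO c-Kit+ and 108 CPM in WT c-Kit+. KO MLL-AF9 alone was low, with a ratio of 0.295 (0.285 to 0.305), the lowest among the members. Top2a, the topoisomerase that untangles sister chromatids, was at 162.5 CPM in KO MLL-AF9, 345 CPM in WT MLL-AF9, 386 CPM in KO c-Kit+ and 374 CPM in WT c-Kit+ (leukaemia ratio 0.471, 0.462 to 0.480). Cdca2, which brings a phosphatase back to chromosomes at mitotic exit, was at 18.4 and 49.3 CPM in KO and WT MLL-AF9 and at 32.8 and 33.0 CPM in KO and WT c-Kit+ (leukaemia ratio 0.373, 0.353 to 0.393). The condensin subunits differed unequally: Ncapd2 had a log2 ratio of -0.94 and the core subunit Smc4 had -0.26, or 0.10 with median-ratio size factors. The proliferation antigen Mki67 had -0.66, the chaperone Anp32e -0.60 and the insulator protein gene Ctcf -0.39. Hmgb2, a chromatin protein that many non-dividing cells also express, was at 2092 CPM in KO MLL-AF9, 2658 CPM in WT MLL-AF9, 2632 CPM in KO c-Kit+ and 2694 CPM in WT c-Kit+. The nuclear envelope genes were all lower in KO leukaemia, where 74.6% of all genes were. Lbr was not lower with median-ratio size factors, where 53.1% of all genes were. The lamin B receptor gene Lbr was at 259 and 324 CPM in KO and WT MLL-AF9 and at 244 and 250.3 CPM in KO and WT c-Kit+. Tmpo and Rangap1 had leukaemia log2 ratios of -0.65 and -0.67.

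**Figure D2:**
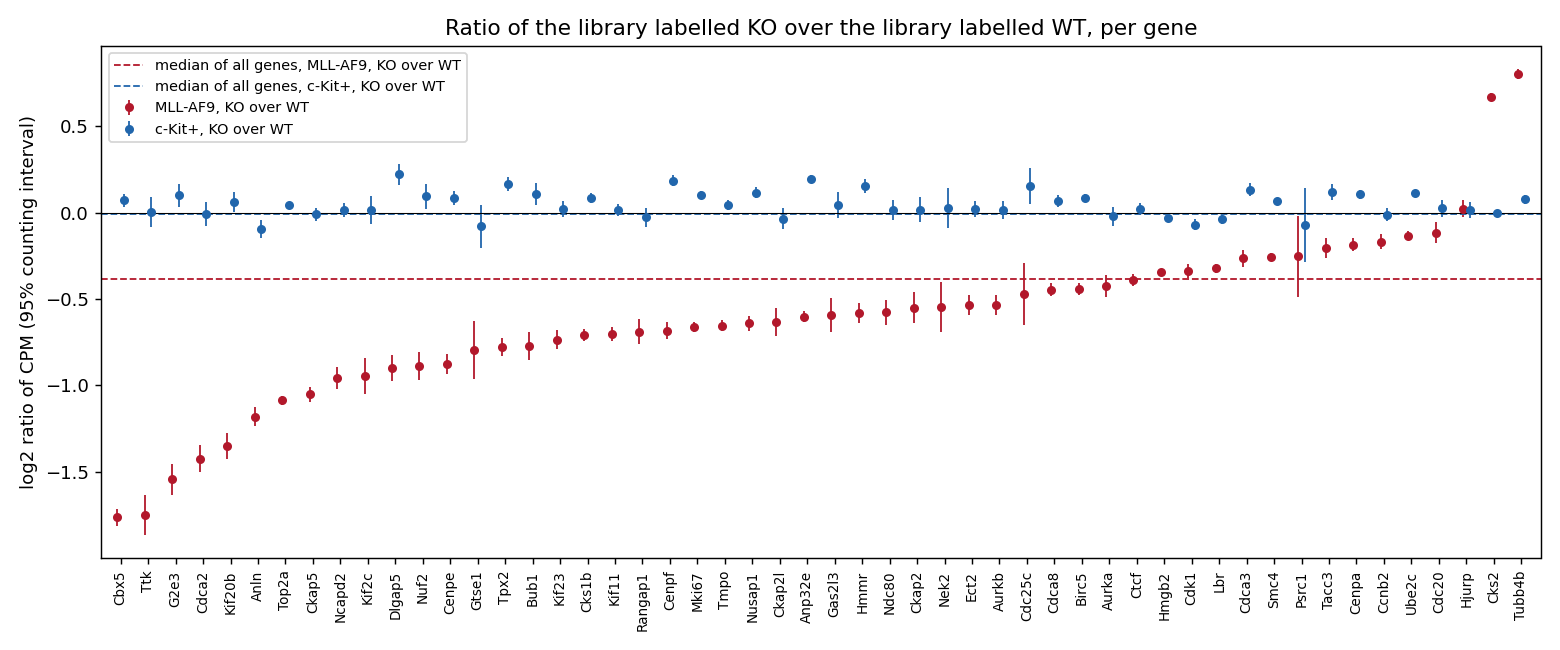
Log2 ratio of CPM, KO over WT, for each gene in MLL-AF9 (red) and in c-Kit+ (blue), ordered by the leukaemia ratio, without added pseudocount; bars are 95% counting intervals and dashed lines the medians of all genes. Leukaemia ratios run from 0.295 for Cbx5 to 1.74 for Tubb4b, while the c-Kit+ ratios lie near 1.

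The members at either end of the leukaemia order differed in length. Gene span, from the first to the last base in GENCODE M21 (GRCm38), was 28926 to 93903 bases for the 8 members with the lowest leukaemia ratios and 2543 to 15163 bases for the 5 with the highest. Across the 51 members Spearman's rho between span and log2 ratio was -0.67 in leukaemia and 0.00 in c-Kit+. Across all genes with a span it was -0.21 in leukaemia (9779 genes) and -0.30 in c-Kit+ (9478 genes). It was -0.52 over 40 other mitosis genes and -0.44 over 42 S phase genes in leukaemia. These values describe the same pair of libraries, in which genes are not independent, and span goes with other features such as intron content. Whether reads within introns were counted is not given in the sources used here, and the part that length has in the ratios was not tested. Presence of a CHR sequence did not go with the order in the same way: the median leukaemia log2 ratio was -0.57 over 35 members with one in the 300-base promoter (from -1.63 to 0.80) and -0.66 over 10 without (from -1.74 to 0.67).

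A list of 40 other mitosis genes, drawn up from textbook roles with earlier results of these data known, had similar values in leukaemia. It was measured in the same 2 libraries and is not an independent account. Of the 40 genes, 37 were lower in KO, where 74.6% of all genes were lower. By 1.5-fold or more 20 were lower, against 35.1% of all genes, and the median log2 ratio was -0.58. With median-ratio size factors 29 were lower and 11 higher, 4 were lower past the fold, against 15.5% of all genes, and the median was -0.23. Wee1, the kinase that holds CDK1 back, was at 12.3 CPM in KO MLL-AF9 and 33.0 CPM in WT MLL-AF9. Pimreg (4.32 and 10.3 CPM in KO and WT MLL-AF9), the checkpoint kinase Bub1b (25.02 and 53.3 CPM), the cytokinesis kinase Cit (24.8 and 50.7 CPM) and the condensin subunit Ncapg (18.7 and 35.4 CPM) followed. On the other side Pttg1, the securin that guards sister chromatid cohesion, was at 28.9 CPM in KO and 24.3 CPM in WT, Troap at 10.1 and 8.89 CPM, and Pkmyt1, another inhibitory CDK1 kinase, at 12.8 and 12.4 CPM. The S phase genes had a median of -0.82, with 42 of 42 lower and 35 past 1.5-fold, against 74.6% and 35.1% of all genes. With median-ratio size factors their median was -0.48, with 37 lower, 5 higher and 15 lower past the fold, against 53.1% lower and 15.5% past the fold over all genes.

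In normal c-Kit+ marrow the same genes differed little between KO and WT. Of 51 members, 40 were higher and 11 lower in KO, where 47.6% of all genes were higher. No member was past 1.5-fold in either direction, where 0.199% of all genes were on the lower side and 0.262% on the higher side. The median log2 ratio was 0.04 over the members and -0.01 over all 9555 genes, and with median-ratio size factors 26 members were higher and 25 lower, where 38.1% of all genes were higher. The spindle gene Dlgap5 was at 48.1 CPM in KO c-Kit+ and 41.3 CPM in WT c-Kit+ (log2 ratio 0.22), and at 21.5 and 40.1 CPM in KO and WT MLL-AF9. It was followed by Anp32e (0.19), Cenpf (0.18), Tpx2 (0.16) and Hmmr, a spindle protein gene (0.15). Cenpf was at 58.8, 94.4, 170.1 and 149.6 CPM, Tpx2 at 50.7, 86.9, 117.8 and 105.02 CPM, Hmmr at 38.9, 58.1, 101.9 and 91.6 CPM and Anp32e at 120.3, 182.6, 308 and 269 CPM in KO MLL-AF9, WT MLL-AF9, KO c-Kit+ and WT c-Kit+. For these 4 genes both leukaemia libraries were below both c-Kit+ libraries. At the other end Anln had -0.09, Gtse1 -0.07, Cdk1 -0.07, Lbr -0.04, Ckap2l -0.04, Hmgb2 -0.03, Rangap1 -0.03 and Aurka -0.02. In KO MLL-AF9, WT MLL-AF9, KO c-Kit+ and WT c-Kit+, Gtse1, a microtubule-binding protein gene, was at 4.77, 8.28, 10.6 and 11.2 CPM, Ckap2l at 21.9, 34.02, 44.5 and 45.7 CPM and Rangap1 at 26.2, 42.2, 53.98 and 54.98 CPM. The 3 genes lowest in KO leukaemia, Cbx5, Ttk and G2e3, had c-Kit+ ratios of 1.05 (1.02 to 1.08), 1.003 (0.944 to 1.07) and 1.07 (1.02 to 1.12).

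Set against c-Kit+ marrow, both leukaemia libraries as a whole held less RNA of most of these genes, but for WT this did not hold within every gate. WT MLL-AF9 over WT c-Kit+ had a median log2 ratio of -0.27 over the members and 0.28 over all genes, with 38 members lower, where 33.4% of all genes were lower. By 1.5-fold or more, 9 were lower, against 11.1% of all genes, and 0 were higher, against 33% of all genes. With median-ratio size factors the median was -0.63, and 30 members were lower by that fold, against 21.7% of all genes. In this pair Cdc25c (6.13 against 14.3 CPM) and Ube2c (224 against 459 CPM) had log2 ratios of -1.10 and -1.03, while Cdca2, Anln and Cbx5 were higher in WT leukaemia at 0.57, 0.51 and 0.44. KO MLL-AF9 over KO c-Kit+ had a median of -0.96, with 40 members lower by 1.5-fold or more, against 25% of all genes. These pairs share their libraries with the KO comparisons and are not independent of them. Leukaemia and c-Kit+ also differ in cell makeup: summed erythroid markers were at 310 CPM in KO MLL-AF9 and 107 CPM in WT MLL-AF9, and at 1102 CPM in KO c-Kit+ and 1213 CPM in WT c-Kit+, with all 8 markers detected in each library. Without cells of the erythroid gate, an alternative added after the data had been seen, the WT median was -0.04 and the KO median -0.82. Within gates of cells set by marker genes, the median of WT MLL-AF9 over WT c-Kit+ was 0.15 in progenitor cells (0.11 over all genes), 0.14 in erythroid cells (-0.22) and 0.05 in ungated cells (0.13), and it was -0.23 in maturing cells (0.56). The median of KO MLL-AF9 over KO c-Kit+ was -0.63, -0.43, -0.65 and -0.75 in the same gates.

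Single cells show how these levels are spread. Each cell was thinned to 2000 UMIs, which left out 514 KO MLL-AF9, 1190 WT MLL-AF9, 1781 KO c-Kit+ and 1432 WT c-Kit+ cells that were shallower, and the members with a UMI were counted. Cells with 10 or more of the 52 genes made up 14.0% (13.4 to 14.7) of KO MLL-AF9 cells and 20.8% (20.03 to 21.5) of WT MLL-AF9 cells. In c-Kit+ marrow they made up 40.3% (39.4 to 41.2) of KO cells and 35.9% (34.98 to 36.7) of WT cells. In leukaemia the KO share was 0.676 times the WT share (0.635 to 0.721), and in c-Kit+ marrow 1.12 times (1.08 to 1.17). Without thinning the leukaemia ratio was 0.793 and the c-Kit+ ratio 1.08. The median cell had 4 members in both leukaemia libraries, and 7 in KO c-Kit+ and 5 in WT c-Kit+.

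**Figure D3:**
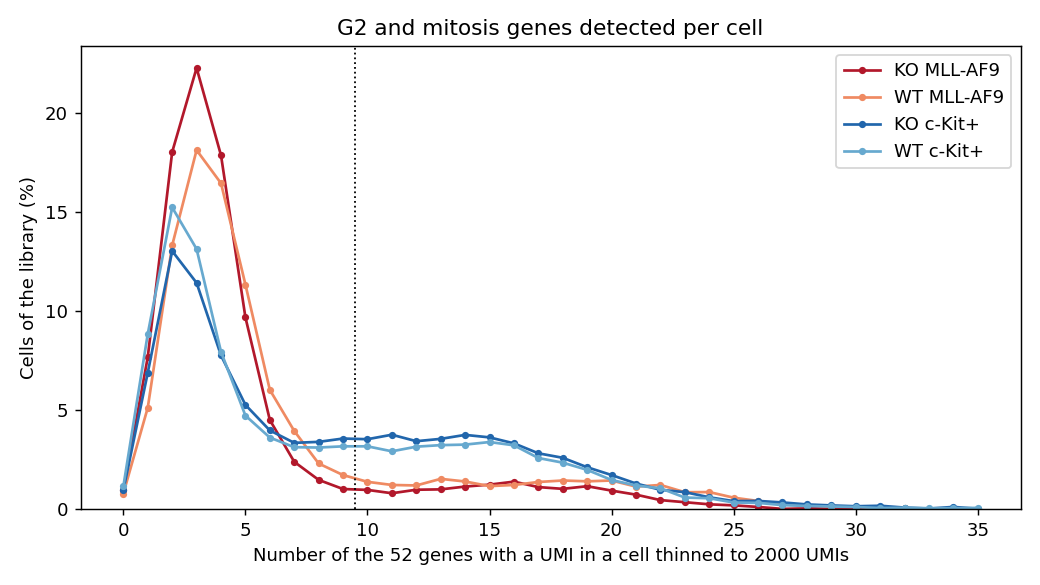
Share of cells (%) by the number of the 52 genes with a UMI in a cell thinned to 2000 UMIs, up to 35; the dotted line marks 10 genes. All libraries peak at 2 or 3 genes, and the c-Kit+ libraries hold more cells to the right of the line (40.3% of KO and 35.9% of WT cells) than the leukaemia libraries (14.0% of KO and 20.8% of WT cells).

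As cells that should seldom divide, maturing cells with a UMI of Cxcr2, the chemokine receptor of late neutrophils, were taken first. Of these, 3.16% in KO MLL-AF9 and 3.91% in WT MLL-AF9 had 10 or more members, but 23.1% in KO c-Kit+ and 16.03% in WT c-Kit+ did, the lower shares being those of leukaemia. Cells with 2 or more of 7 T or NK markers had 10.98% in KO MLL-AF9, 17.6% in WT MLL-AF9, 14.6% in KO c-Kit+ and 19.8% in WT c-Kit+. In KO c-Kit+ 1 of the markers had 306.5 of the list's 321.5 CPM. The list was at 588 CPM in the progenitor gate and 226 CPM in the maturing gate of that library. The markers thus do not show that these cells are all T or NK cells. A stricter choice, made after these values had been seen, was 2 or more UMIs of Cxcr2 after thinning. Of such cells, 0.758% (2 of 264) in KO MLL-AF9 and 0.809% (3 of 371) in WT MLL-AF9 had 10 or more members, and 2.08% (6 of 288) in KO c-Kit+ and 0.766% (2 of 261) in WT c-Kit+. Their median depths before thinning were 2895 to 4243.5 UMIs. Cells with 10 or more members were deeper, with medians of 13580 UMIs in KO MLL-AF9 and 11281 in WT MLL-AF9, against 7165 and 5803 in the other cells of the same libraries. Scrublet, a doublet caller, marked 6.51% of the many-member cells and 2.74% of the others in KO MLL-AF9, and 5.63% and 2.81% in WT MLL-AF9. Doublets were kept here.

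Taken by gate, the share of many-member cells in leukaemia was lower in KO, with an interval of the ratio under 1, in 3 of the 4 gates. The progenitor gate, cells with a UMI of Kit, Cd34 or Flt3, had 17.1% (14.7 to 19.8) in KO MLL-AF9 and 26.9% (25.4 to 28.5) in WT MLL-AF9. This gate's leukaemia ratio of 0.636 was 1.06 without thinning, at median depths of 11807 UMIs in KO and 8182.5 UMIs in WT. The maturing gate, cells with 1% or more of UMIs from neutrophil granule and late neutrophil genes, had 13.3% (12.6 to 14.1) in KO and 17.6% (16.5 to 18.6) in WT. Cells in no gate had 11.2% in KO and 19.1% in WT. The erythroid gate, cells with 3 or more of 8 red cell genes, had 51.6% (45.2 to 57.9) in KO MLL-AF9 and 52.1% (41.6 to 62.5) in WT MLL-AF9, and a ratio of 0.990 whose interval runs from 0.707 to 1.40. That gate held 252 and 94 thinned leukaemia cells in KO and WT, so a modest difference was not detectable at this depth.

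In c-Kit+ marrow the erythroid gate held the largest share of many-member cells, 82.9% of KO and 81.7% of WT cells. The maturing gate had 36.5% of KO and 33.0% of WT cells, and the progenitor gate 38.9% of KO and 32.9% of WT cells. The gates did not hold equal parts of the libraries: 7.68% of KO MLL-AF9 and 25.1% of WT MLL-AF9 cells were in the progenitor gate, and 68.4% and 40.1% in the maturing gate. The maturing gate is a range cut from a score, and 2056 KO MLL-AF9 cells and 2486 WT MLL-AF9 cells had 0.5 to 2% of their UMIs from its genes, against 454 KO and 243 WT c-Kit+ cells. With the gates given the same weights in both libraries, the leukaemia median over the members was -0.55.

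**Figure D4:**
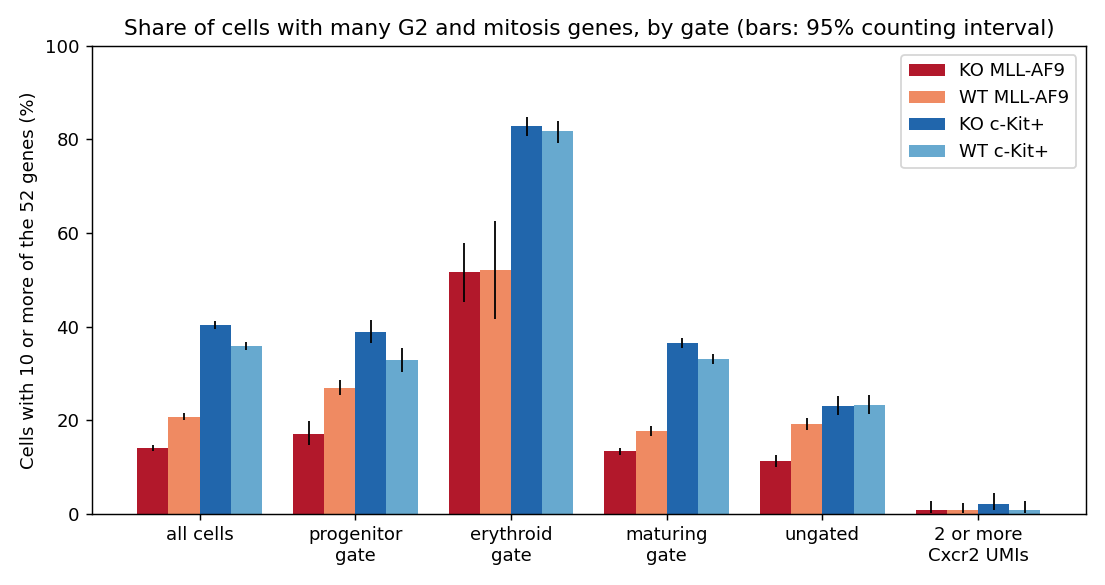
Share of cells (%) with 10 or more of the 52 genes, in all cells, in each gate and in cells with 2 or more Cxcr2 UMIs, for the 4 libraries; error bars are 95% Clopper-Pearson counting intervals. KO MLL-AF9 is below WT MLL-AF9 in the progenitor gate (17.1% and 26.9%), the maturing gate (13.3% and 17.6%) and ungated cells, and the erythroid bars are the highest in each library.

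Within each gate most members were lower in KO than in WT leukaemia, as were most of all genes, though single members differed in direction between gates. Values by gate are in CPM, and median-ratio size factors were not applied within gates. In the progenitor gate 49 of 51 members were lower in KO than in WT leukaemia, against 67.6% of all genes, and 29 were so by 1.5-fold or more, against 20.7%, with a median log2 ratio of -0.61 where that of all genes was -0.21. The cells of this gate differed between the libraries in other markers too: summed megakaryocyte markers were at 361 CPM in KO and 24.97 CPM in WT, neutrophil progenitor markers at 16884 and 10784 CPM, dendritic markers at 35.6 and 80.5 CPM and the haemoglobin gene Hba-a1 at 208 and 24.2 CPM. Their part in the member levels was not tested. In the maturing gate 46 of 50 were lower, against 71.9% of all genes, and 18 were past the fold, against 29.9%, with medians of -0.51 and -0.32. In the erythroid gate 46 of 52 were lower, against 7214 of 9176 genes. Past the fold 23 were lower, against 40.7% of all genes, and the medians of -0.53 and -0.45 lay close together. The erythroid gate held 264 KO and 99 WT leukaemia cells, which also differed in makeup. Hba-a1 was at 61364 CPM in KO and 28547.5 CPM in WT, and summed maturing markers were at 7214 and 2323 CPM. The part of these in the erythroid values was not tested. Top2a was at 169 and 397 CPM in KO and WT in the progenitor gate, at 159 and 315 CPM in the maturing gate and at 429 and 758 CPM in the erythroid gate. Ube2c was lower in KO in the progenitor gate (196.5 and 271 CPM) and higher in KO in the erythroid gate (1088 and 971 CPM). Cks2 was higher in KO in the progenitor gate (871 and 499 CPM) and the maturing gate (634 and 355 CPM) but not in the erythroid gate (574 and 665 CPM).

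The level within dividing cells was looked at next. Each member was measured in cells with 10 or more of the other 51 members, so that a member never chose its own cells. This comparison was added after the data had been seen. The other members were mostly lower in KO too, so dividing cells with less of their RNA can miss this limit. The choice thus does not fully set the share of dividing cells apart from the level within them. The many-member cells came from different gates in the leukaemia libraries: 9.42% in KO and 34.0% in WT were in the progenitor gate, 8.22% and 1.97% in the erythroid gate and 66.2% and 36.2% in the maturing gate. The part of this makeup in the levels was not tested. Within such cells of the leukaemia libraries the median log2 ratio of KO over WT was -0.22 over the 52 members, and -0.30 over the 9733 other genes. By 1.5-fold or more, 8 members were lower, against 27.2% of the other genes, and 2 were higher, against 8.82%. In the remaining cells 44 members passed the level filter, with a median of -0.43 against -0.39 for other genes, and 18 were lower past the fold, against 36.5%.

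The members parted in these cells. G2e3 was at 37.3 CPM in KO and 96.4 CPM in WT many-member leukaemia cells (ratio 0.387, 0.358 to 0.418), and Ttk at 30.1 and 73.6 CPM (0.409, 0.375 to 0.446). Cbx5 was at 100.1 and 234 CPM, Anln at 75.6 and 175 CPM, Cdca2 at 66.96 and 129 CPM and Kif20b at 73.8 and 140 CPM in KO and WT. These 6 genes, with Top2a and Ckap5 at log2 ratios of -0.64 and -0.65, are the 8 that were lower past the fold, and they are also the 8 with the lowest ratios in whole libraries. Both orders share counts, since the many-member cells are part of those libraries. On the other side, Tubb4b was at 634 and 361 CPM in KO and WT and Cks2 at 1306 and 778 CPM. In contrast to G2e3, a member of the same role group, Cdc20 and Ube2c were higher in KO within these cells by less than the fold, and so was the cyclin: Cdc20 was at 176 and 140 CPM, Ube2c at 842 and 677 CPM and Ccnb2 at 266 and 215 CPM. Cdk1, at 342 and 304 CPM, and Birc5, at 474 and 475 CPM in KO and WT, differed less. Spearman's rho between span and log2 ratio was -0.69 over the 52 members here.

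**Figure D5:**
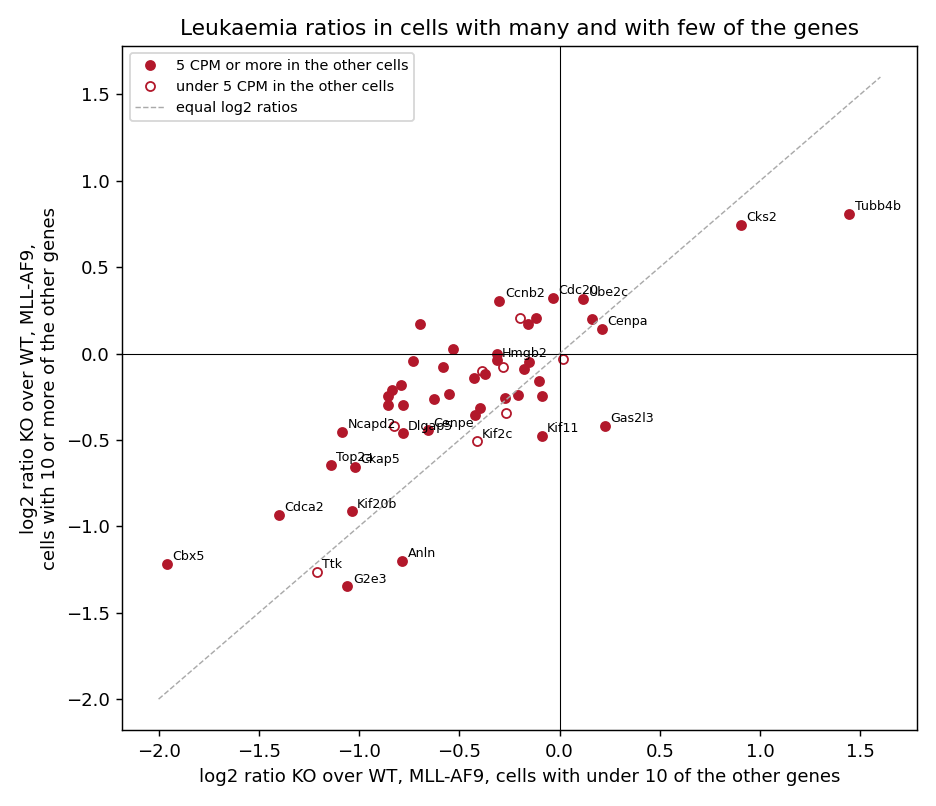
Log2 ratio of KO over WT in leukaemia for each gene, in cells with under 10 of the other genes (x axis) and in cells with 10 or more (y axis); open points were under 5 CPM in the cells of the x axis, and the dashed line marks equal ratios. G2e3, Ttk, Cbx5 and Anln are low on both axes, Tubb4b and Cks2 are high on both, and Cdc20, Ube2c and Ccnb2 lie above 0 on the y axis.

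Within many-member cells of c-Kit+ marrow, KO over WT had a median of -0.03 and no member was past the fold, where 0.173% of the other genes were lower and 0.314% higher. In many-member cells WT leukaemia over WT c-Kit+ had a median of 0.36 over the 52 members, close to 0.32 over other genes. Of the members, 14 were higher past the fold, against 34.3% of other genes. In the remaining cells the median was -0.66 over 47 members and 0.33 over other genes, with 26 members lower past the fold, against 10% of other genes. Ttk and Cdca2, 2 of the members higher past the fold, were at 73.6 and 129 CPM in many-member cells of WT leukaemia, against 36.2 and 54.9 CPM in those of WT c-Kit+. These values are in CPM only. Over whole libraries, median-ratio size factors moved the median of all genes in this pair from 0.28 to -0.06.

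The ratio of levels between many-member cells and the rest also differed, but it depends on where the limit falls. Among thinned cells, those with 9 members, just under the limit, made up 1.02% in KO MLL-AF9 and 1.73% in WT MLL-AF9. They made up 3.57% in KO c-Kit+ and 3.18% in WT c-Kit+. The part of such cells in the ratios was not tested, so the libraries cannot be ranked by how restricted the genes are. Level in many-member cells over level in the rest had a median over members of 15.7 in KO MLL-AF9, 10.8 in WT MLL-AF9, 4.23 in KO c-Kit+ and 4.92 in WT c-Kit+. Cdc25c had 34.7 and 36.8 in KO and WT leukaemia, and Hmmr had 31.6 and 32.5. Lbr, which non-dividing cells also express, had 1.40 to 1.47 in the 4 libraries and was lowest in each. The other mitosis genes, which took no part in choosing the cells, had medians of 18.3 in KO MLL-AF9, 12.3 in WT MLL-AF9, 4.48 in KO c-Kit+ and 4.90 in WT c-Kit+. S phase genes had 2.79 in KO MLL-AF9, 1.61 in WT MLL-AF9, 1.57 in KO c-Kit+ and 1.65 in WT c-Kit+.

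The share of cells with many S phase genes was smaller in KO than in WT leukaemia, both in many-member cells and in the others. Of many-member cells, 22.0% in KO MLL-AF9 and 30.8% in WT MLL-AF9 also had a UMI of 10 or more S phase genes, as did 23.2% in KO c-Kit+ and 23.8% in WT c-Kit+. Of the other cells, 2.91% in KO MLL-AF9 and 9.33% in WT MLL-AF9 had 10 or more S phase genes, against 8.16% in KO c-Kit+ and 8.11% in WT c-Kit+. WT MLL-AF9 had the highest share in the many-member cells, where the other libraries lay close together, and KO MLL-AF9 had the lowest share in the other cells.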

How the data were processed

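Droplet 3′ libraries, 1 for each of 4 groups, were deposited as whole-number UMI counts of genes in cell barcodes. Reads were processed with Cell Ranger 7.1.0, and mm10 is named as the build, per the submitters' processing notes. The annotation is not given in the sources used here, and gene positions come from GENCODE M21. Groups follow the labels.

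Barcodes entered as cells from 1000 UMIs and 500 genes upward, if mitochondrial UMIs were at most 10%. UMIs were summed over cells and scaled to CPM, and log2 ratios used a pseudocount of 1 CPM and a mean of 5 CPM or more over the 2 libraries. With 1 library per group no test was made, and a gene was called past 1.5-fold. Intervals at 95% are exact Poisson, conditional binomial or Clopper-Pearson intervals and cover counting error only. Cells were thinned to 2000 UMIs before members were counted. Scrublet (scanpy 1.11.5, expected rate 0.08) called 3.09% to 4.46% of cells as doublets. Python 3.11.15, numpy 2.4.6 and scipy 1.17.1 were used, and the scripts were tested on simulated data.

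Gates were applied in the order erythroid, maturing, progenitor. Named genes follow a rule: in each KO comparison the 8 lowest and 5 highest log2 ratios among members, the member with the most UMIs in each role group, and of the other mitosis genes the 5 lowest and 3 highest in leukaemia, with the remaining members accounted for by role. The members and lists were chosen with earlier results of these data known. Alternatives covered cell filters, doublets, scaling, pseudocounts, level filters, cell weights, thinning, gates and folds.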

Additional observations from a re-analysis of the deposited data

Results flagged for a closer look

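The comparison of KO with WT gave values on opposite sides of no difference in leukaemia and in c-Kit+ marrow for both summaries of the G2 and mitosis genes. The median log2 ratio over the members was -0.60 in leukaemia and 0.043 in c-Kit+ marrow, where the medians of all genes were -0.38 and -0.01. The c-Kit+ median was 0.013 with median-ratio size factors, with 26 members higher and 25 lower. It was 0.0087 in the progenitor gate, 0.025 in the erythroid gate, 0.071 in the maturing gate and 0.0078 in ungated cells. In many-member cells it was -0.03, and it was 0.15 with equal weight per cell and 0.15 with thinned cells. The ratio of the share of cells with 10 or more members was 0.676 in leukaemia and 1.12 in c-Kit+ marrow. With 1 library per group, the difference between leukaemia and c-Kit+ marrow was not tested.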

How the results depend on the processing

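No paired analysis was possible because each group holds 1 library and the results come from no test. The medians given first are those of the members in KO over WT leukaemia (-0.60), KO over WT c-Kit+ (0.04), WT MLL-AF9 over WT c-Kit+ (-0.27) and KO MLL-AF9 over KO c-Kit+ (-0.96), and the median difference of the KO effects (-0.61). Their signs were kept in all 13 alternatives. Median-ratio size factors gave -0.26 in KO over WT leukaemia with 9 members lower past the fold, -0.63 with 30 lower in WT MLL-AF9 over WT c-Kit+, and a difference of KO effects of -0.27. A pseudocount of 5 CPM gave -0.52 in leukaemia, -0.82 in KO MLL-AF9 over KO c-Kit+ and -0.51 for the difference. Equal weight per cell gave 0.15 in c-Kit+, -0.17 with 3 members higher in WT MLL-AF9 over WT c-Kit+, and -0.85 for the difference. Thinned cells gave 0.15 in c-Kit+, 2 higher in WT MLL-AF9 over WT c-Kit+, -1.12 in KO MLL-AF9 over KO c-Kit+ and -0.81 for the difference. Gate weights set for each pair, the same in both of its libraries, gave -0.55 in KO over WT leukaemia. With such weights WT MLL-AF9 over WT c-Kit+ had -0.063 with 3 lower and 3 higher, and KO MLL-AF9 over KO c-Kit+ had -0.77. A fold of 2 left 8 lower and 0 higher in KO over WT leukaemia, 2 lower in WT MLL-AF9 over WT c-Kit+ and 23 lower in KO MLL-AF9 over KO c-Kit+, as a stricter limit must. Without the erythroid gate, added after the data had been seen, WT MLL-AF9 over WT c-Kit+ had -0.041 with 4 lower and 3 higher, and KO MLL-AF9 over KO c-Kit+ had -0.82.

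For the ratio of the share of many-member cells over all cells, KO over WT was 0.607 in leukaemia and 1.18 in c-Kit+ at 1000 UMIs, 0.593 in leukaemia at 4000 UMIs, and 0.793 in leukaemia and 1.08 in c-Kit+ without thinning. WT MLL-AF9 over WT c-Kit+ and KO MLL-AF9 over KO c-Kit+ were 0.711 and 0.429 at 6 or more members, 0.697 and 0.410 at 15 or more, 0.864 and 0.446 at 1000 UMIs, 0.525 and 0.287 at 4000 UMIs, and 0.878 and 0.646 without thinning. They were 0.510 and 0.315 with the stricter cell filter, 0.627 and 0.381 without 11 broadly expressed members, and 0.652 and 0.380 without the erythroid gate. By gate some ratios changed sides. WT MLL-AF9 over WT c-Kit+ in the progenitor gate became 1.23 at 15 or more members, 1.41 at 1000 UMIs and 1.14 without the broad members, and in ungated cells 1.18, 1.84 and 1.085 in the same order, and 1.21 without thinning. Without thinning, KO over WT leukaemia in the progenitor gate was 1.06 and KO MLL-AF9 over KO c-Kit+ in ungated cells 1.11. The cause was not tested. One library per group limits all comparisons, whatever the depth.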
